A study of Mus musculus with 8 samples.

Results

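The heat shock proteins and their J-domain partners (DNAJ proteins) were examined across mouse embryonic fibroblasts (MEFs) with and without Keap1, grown in dishes or as tumours. Members were all genes whose symbol begins with Hsp followed by a family letter or number, or with Dnaj, together with the ER chaperone Hyou1 and the transcription factor Hsf1. Hspbap1 and Hspbp1 were left out. This gave 72 genes with 120 probes, of 18217 gene symbols on the array. The families are 3 HSP90, 11 HSP70, 4 HSP110, 2 chaperonin (HSP60 and HSP10), 8 small HSP, 4 DNAJA, 11 DNAJB and 28 DNAJC genes, and Hsf1. Of these, 67 genes were bright enough to test, and 64 of the 67 were well above background on all 8 arrays. The 5 genes not tested were Dnajb13, Dnajb7, Dnajc5b, Dnajc6 and Hspb3.

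The 4 groups, of 2 arrays each, were tumours formed by Keap1-/- cells (Keap1 null allograft), tumours formed by wild-type cells (WT allograft), Keap1-/- cells in dishes (Keap1 null dish) and wild-type cells in dishes (WT dish). TR, a tag in the names of both lines, is not explained in the labels. Tumours grew in nu/nu mice, which lack a thymus, after injection of 3000000 Keap1 null or 10000000 WT cells, and were taken at 100 to 150 mm3. One line stands for each genotype, so line and genotype cannot be told apart. The labels do not say that replicates 1 and 2 were separate cultures or animals, so every p-value measures the spread between arrays only.

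HSP70 proteins bind unfolded stretches of other proteins and release them in an ATP-driven cycle. DNAJ proteins bring clients to HSP70 and trigger ATP hydrolysis, and HSP110 proteins exchange the nucleotide that ends the cycle. HSP90 and the chaperonins act on later folding steps, and small HSPs hold proteins that have begun to unfold. HSF1 switches on many cytosolic chaperones under heat or proteotoxic stress, whereas the unfolded protein response controls those of the endoplasmic reticulum (ER). Keap1 holds down a different factor, NRF2 (Nfe2l2).

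Levels are log2 Cy3 intensities minus the 75th percentile of the array, written below as log2 levels, and are compared within a gene only. Tests are limma's, with Benjamini-Hochberg adjustment over all 22922 targets tested, and a gene was called at an adjusted p below 0.05. The share of probes well above background was 69.7% to 74.7% on allograft arrays and 60.6% to 64.5% on dish arrays. The Keap1 probe gave log2 fold changes, Keap1 null over WT, of -1.69 in allografts (adjusted p = 0.000722) and -0.86 in dishes (adjusted p = 0.0197). Its place relative to the deletion is unknown, and it checks the genotype only if it lies inside. Of 10 fibroblast markers, 9 were above background in WT dishes and 10 in the other groups, and the epithelial markers Epcam, Cdh1, Krt8 and Krt18 were above background in all 4 groups. All 10 macrophage markers were above background in both allograft groups, with summed scaled intensities of 15.7 to 16.7 in Keap1 null and 79.5 to 87.5 in WT allografts. The sums were 0.228 to 0.257 in Keap1 null and 0.195 to 0.209 in WT dishes. The part of these host cells in the allograft values was not tested. In bulk RNA, fewer cells of a type and less RNA per cell cannot be told apart.

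Most chaperone genes that differed between growth conditions were lower in tumours than in dishes, and this held in both lines. In Keap1 null cells 44 of the 67 were called between allograft and dish, 9 higher and 35 lower, against 64.9% of all targets called. In WT cells 50 were called, 8 higher and 42 lower, against 68.1% of all targets. The share called was therefore near the background, while the lower direction took 52.2% of the chaperone genes in Keap1 null and 62.7% in WT, against 29.1% and 32.2% of all targets. Only 17489 of all targets, but 64 of the 67 chaperone genes, had probes above background on all 8 arrays. Among these, 8 chaperone genes were higher and 35 lower in Keap1 null, and 6 and 42 in WT. Of all such targets called, 43.1% and 39.4% were higher, against 55.2% and 52.7% in the main fit. The chaperone median relative to all targets was -0.19 and -0.41, against -0.37 and -0.57. Between the lines, 32 genes were called in allografts, 18 higher and 14 lower in Keap1 null, against 41.8% of all targets. In dishes 20 were called, 5 higher and 15 lower, against 21.1% of all targets (11.4% higher and 9.78% lower). The difference of the line effect between allograft and dish (the interaction) was called for 28 genes, 21 positive and 7 negative, against 32.9% of all targets. A positive value means that Keap1 null stood higher relative to WT in allografts than in dishes.

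When a dish array was left out, calls between the lines in dishes fell among all targets as well as among the chaperone genes. The dish comparison lost the largest share of its chaperone calls. Leaving out any 1 of the 4 dish arrays brought its 20 calls to between 7 and 8, and 7 calls held when each array was left out: Dnajb3, Dnajc1, Dnajc22, Hspa12a, Hspa12b, Hspb1 and Hspb8. In the other comparisons 25 of 32 (lines in allografts), 30 of 44 (growth in Keap1 null), 43 of 50 (growth in WT) and 17 of 28 (interaction) held. The balance of directions depended on the scaling, among all targets as well as among the chaperone genes. In dishes the split was 5 higher and 3 lower with unscaled intensities. Of all called targets 76.4% were then higher, against 53.7% in the main fit. In allografts the split between lines was 10 higher and 16 lower with unscaled intensities, with 30.5% of all called targets higher (main fit 49%). For growth in Keap1 null cells, scaling to the array median gave 2 higher and 60 lower. There 27.3% of all called targets were higher (main fit 55.2%). For growth in WT cells, median scaling gave 4 higher and 62 lower, quantile normalization gave 11 higher and 31 lower, and unscaled intensities gave 10 higher and 19 lower. In the same order, 25.9%, 47% and 78.5% of all called targets were higher (main fit 52.7%). For the interaction, quantile normalization gave 16 positive and 9 negative, and unscaled intensities 5 positive and 8 negative. Of all called targets 43.4% and 23.3% were positive under these settings (main fit 48.2%). Median scaling moved the median of all targets to -0.84 in Keap1 null and -1.04 in WT growth, against 0.03 and -0.02 with the 75th percentile. Relative to all targets, the median chaperone gene was lower in allografts under every setting run, by -0.47 to -0.19 in Keap1 null and -0.65 to -0.18 in WT.

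**Figure D1:**
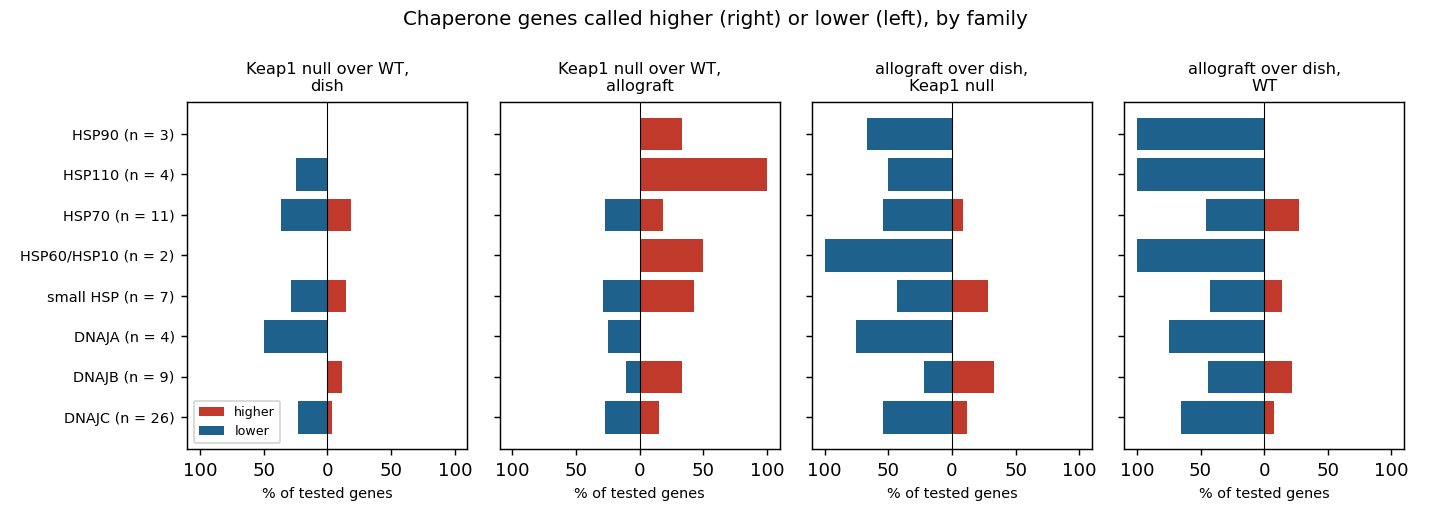
Share of tested genes of each chaperone family called higher (red, to the right) or lower (blue, to the left) at an adjusted p below 0.05, in percent, for the 4 pairwise comparisons. All 4 HSP110 genes were called higher in Keap1 null than in WT allografts and lower in WT allografts than in WT dishes. Among all targets 20.5% and 32.2% were called in these directions. The Hyou1 call between WT allograft and dish ended without WT dish replicate 2 (log2 fold change -0.56) or WT allograft replicate 1 (-0.41).

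The HSP110 family separated the lines in tumours. Hsph1 (HSP105), a nucleotide exchange factor that HSF1 induces, had log2 levels of 5.23 and 5.13 in Keap1 null allografts, 3.55 and 3.53 in WT allografts, 5.36 and 5.23 in Keap1 null dishes, and 5.59 and 5.46 in WT dishes. The WT allografts stood alone, below every other array. Hsph1 was 3.11-fold higher in Keap1 null than in WT allografts (log2 1.64 ± 0.10 SE, adjusted p = 9.59e-05), whereas the dishes gave a log2 fold change of -0.23 (adjusted p = 0.158). In WT cells the allograft was lower than the dish by a log2 fold change of -1.99 (adjusted p = 1.9e-05), against -0.11 in Keap1 null cells (adjusted p = 0.348). The interaction of 1.87 ± 0.14 (adjusted p = 0.000384) was called under every alternative run.

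The transcribed start of Hsph1 holds a heat shock element, the inverted repeat that HSF1 binds. It is shown because Hsph1 has the largest change between the lines in tumours among HSP110 genes. The window lies at chr5:149636280-149636308 on the minus strand of GRCm38.p6 (RefSeq), and capitals mark the match to GAANNTTCNNGAA, read here as its reverse complement TTCNNGAANNTTC, from base 16 to base 28 after one of its annotated starts.
Hsph1: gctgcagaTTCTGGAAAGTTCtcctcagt
This motif occurred in 0.662% of the 27025 genes with a promoter sequence (250 bases before to 50 after a start, both strands), and in 4 of the 52 members with one: Dnajb6, Hspd1, Hspe1 and Hsph1. Only exact matches in this window were counted, so elements with other letters or outside it were missed. Hspa1a, Hspa1b, Hspb1 and Dnajb1 were searched and had no exact match, and Hsp90aa1 and Hspa8 had no promoter sequence to search.

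Hspa4l (APG-1), another cytosolic exchange factor, followed the same order. Its log2 levels were 2.17 and 2.14 in Keap1 null allografts, 1.27 and 1.03 in WT allografts, 2.61 and 2.50 in Keap1 null dishes, and 3.34 and 3.12 in WT dishes. No 2 groups overlapped, and the order of the lines in dishes was opposite to that in tumours. The line difference was 1.00 ± 0.13 in allografts (adjusted p = 0.0017) and -0.67 ± 0.13 in dishes (adjusted p = 0.016), with an interaction of 1.68 (adjusted p = 0.00133). The dish call ended without Keap1 null dish replicate 1 or 2 or WT dish replicate 1 (adjusted p 0.0677 to 0.101). Hspa4 (APG-2) gave 0.77 ± 0.08 in allografts (adjusted p = 0.000883) and -0.15 in dishes (adjusted p = 0.294), but 1 of its 3 probes gave -0.07 in allografts. The 4th family member, Hyou1 (GRP170), acts in the ER.

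**Figure D2:**
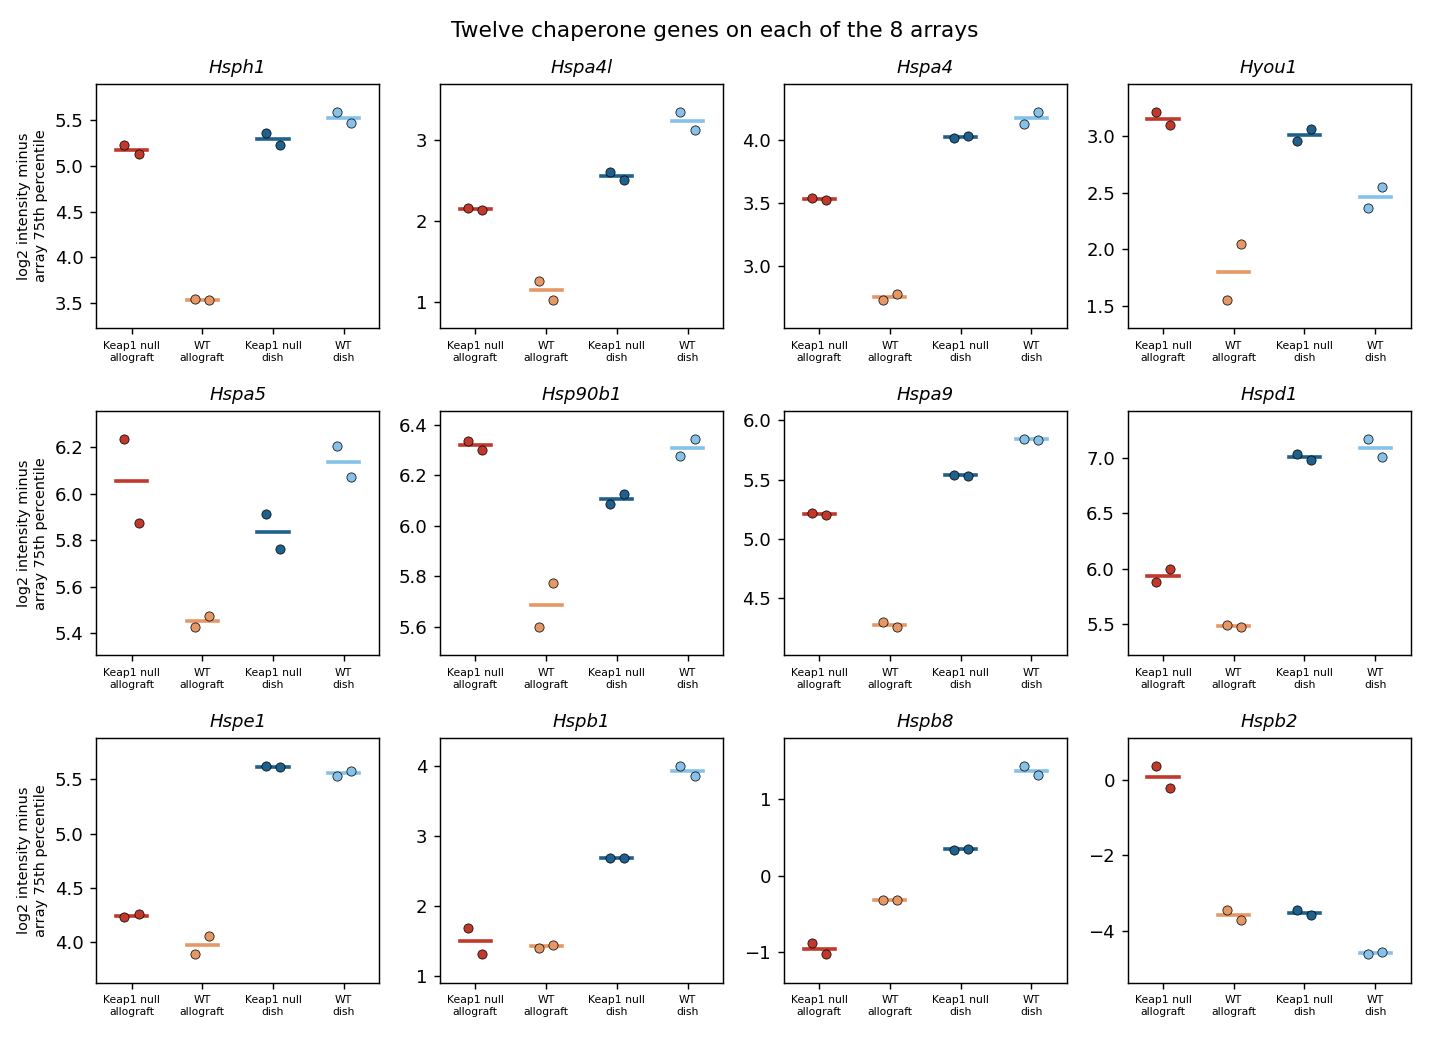
Log2 level (intensity minus the 75th percentile of the array) of 12 chaperone genes in Keap1 null allograft, WT allograft, Keap1 null dish and WT dish. Points are single arrays and lines are group means of 2 arrays, and each panel has its own vertical range. Hsph1, Hspa4 and Hspa9 were lowest in WT allografts, while Hspd1 and Hspe1 were low in both allograft groups.

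BiP, GRP94 and GRP170, which handle client proteins in the ER, were higher in Keap1 null than in WT tumours. Hspa5 (BiP), the HSP70 of the ER and sensor of unfolded proteins there, had log2 levels of 6.23 and 5.88 in Keap1 null allografts, 5.43 and 5.48 in WT allografts, 5.91 and 5.76 in Keap1 null dishes, and 6.20 and 6.07 in WT dishes. Both WT allografts were below all other arrays, and the Keap1 null groups overlapped. The line difference in allografts was 0.60 ± 0.14 (adjusted p = 0.0187), and the call ended without Keap1 null allograft replicate 1 or either WT allograft array (adjusted p 0.0619 to 0.082). Hsp90b1 (GRP94), the ER HSP90, had log2 levels of 6.34 and 6.30 in Keap1 null against 5.60 and 5.77 in WT allografts, a difference of 0.63 ± 0.10 (adjusted p = 0.00336). Hyou1, an exchange factor for BiP, had 3.21 and 3.09 in Keap1 null allografts, 1.55 and 2.05 in WT allografts, 2.95 and 3.06 in Keap1 null dishes, and 2.36 and 2.55 in WT dishes. Both Keap1 null groups lay above both WT groups, with a called difference of 1.35 ± 0.18 in allografts (adjusted p = 0.00202) and an uncalled 0.55 in dishes (adjusted p = 0.0879).

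The ER J proteins did not move as one. Dnajb9 (ERdj4), a target of the unfolded protein response, had log2 levels of 0.26 and 0.59 in Keap1 null allografts, -0.54 and -0.37 in WT allografts, -0.68 and -0.51 in Keap1 null dishes, and -0.39 and -0.18 in WT dishes. The Keap1 null allografts stood above every other array, with a line difference of 0.88 ± 0.16 in allografts (adjusted p = 0.00622). Dnajc3 (p58IPK), which restrains the kinase PERK, gave 0.70 ± 0.11 in allografts (adjusted p = 0.00461), with interactions of 0.96 for Dnajc3 (adjusted p = 0.00718) and 1.19 for Dnajb9 (adjusted p = 0.00989). Dnajc1 (ERdj1), a ribosome-bound J protein, went the other way, with -0.47 in allografts (adjusted p = 0.00788) and -0.66 in dishes (adjusted p = 0.00463). Dnajc16 was also lower in Keap1 null in allografts (-0.38, adjusted p = 0.0137) and dishes (-0.42, adjusted p = 0.0189), but the first call ended without Keap1 null allograft replicate 1 or WT allograft replicate 2 (adjusted p 0.06 to 0.0684) and the second without any 1 dish array (adjusted p 0.0717 to 0.123). Its 2 probes were called in opposite directions between Keap1 null allograft and dish (-0.44 and 0.49). The 2nd Dnajc16 probe gave an uncalled 0.02 between the lines in allografts (adjusted p over probes = 0.942). Over the 14 ER members tested, 5 were called higher and 2 lower in Keap1 null allografts, against 20.5% and 21.3% of all targets, and their median was 0.25 against 0.00. Dnajb11 was not analysed here.

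The promoters of Hspa5, Hsp90b1 and Dnajc3, all higher in Keap1 null tumours, are shown because they held the ER stress element. They were the only ones to hold it among the 52 members with a promoter sequence. Hyou1 had no promoter sequence and was not searched. Capitals mark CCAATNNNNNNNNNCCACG or its reverse complement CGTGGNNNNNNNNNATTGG, and each run covers the 250 bases before the start (RefSeq, GRCm38.p6). The windows are chr2:34771840-34772089 on the plus strand for Hspa5, chr10:86705445-86705694 on the minus strand for Hsp90b1, and chr14:118937682-118937931 on the plus strand for Dnajc3.
Hspa5: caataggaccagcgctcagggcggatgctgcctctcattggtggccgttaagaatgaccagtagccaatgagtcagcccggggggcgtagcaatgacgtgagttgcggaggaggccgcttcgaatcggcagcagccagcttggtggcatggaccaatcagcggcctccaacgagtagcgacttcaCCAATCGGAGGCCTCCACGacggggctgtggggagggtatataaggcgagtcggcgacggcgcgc
Hsp90b1: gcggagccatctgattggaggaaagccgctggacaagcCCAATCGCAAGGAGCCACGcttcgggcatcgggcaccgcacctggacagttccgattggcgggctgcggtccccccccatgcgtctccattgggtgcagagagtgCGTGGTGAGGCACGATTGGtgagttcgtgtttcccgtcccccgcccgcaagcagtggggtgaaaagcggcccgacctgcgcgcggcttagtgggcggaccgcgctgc
Dnajc3: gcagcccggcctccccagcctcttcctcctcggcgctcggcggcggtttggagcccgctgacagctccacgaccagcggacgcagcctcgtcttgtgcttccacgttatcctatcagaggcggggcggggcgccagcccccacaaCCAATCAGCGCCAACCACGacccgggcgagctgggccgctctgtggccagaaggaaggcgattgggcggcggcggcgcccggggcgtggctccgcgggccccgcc
The match lies at -65 to -47 from the start of Hspa5, at -212 to -194 and, on the other strand, -107 to -89 in Hsp90b1, and at -105 to -87 in Dnajc3. The element occurred in 37 of 27025 genes (0.137%). The CCAAT box inside it, searched alone, occurred in 41.058% of genes and in 21 of the 52 members. A match is a run of letters and shows no binding.

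Among other genes of ER folding and of the unfolded protein response, the calls between lines in tumours ran in 1 direction. Of 26 tested, 14 were called higher and 0 lower in Keap1 null allografts relative to WT allografts, against 20.5% and 21.3% of all targets, and 10 to 11 were higher with median scaling, quantile normalization or normexp background, but 4 with unscaled intensities. In dishes 2 were higher and 6 lower, against 11.4% and 9.78% of all targets. The largest differences in allografts were in Ddit3 (CHOP), a stress transcription factor, at 1.56 (adjusted p = 0.000236), Ppp1r15a (GADD34), which restores translation after stress, at 1.43 (adjusted p = 0.000354), Atf6, an ER membrane sensor, at 1.06 (adjusted p = 0.00307), and Atf4, the factor downstream of PERK, at 0.93 (adjusted p = 0.000949). Ppp1r15a was 1.17 and 1.07 in Keap1 null allografts, -0.17 and -0.44 in WT allografts, -0.03 and 0.13 in Keap1 null dishes, and 1.32 and 1.34 in WT dishes. Its line difference had the other sign in dishes, at -1.28 (adjusted p = 0.00133). The interaction was called positive for 13 of the 26 and negative for 0, against 15.8% and 17% of all targets.

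Among mitochondrial chaperones, the HSP70 was lowest in WT tumours, and the chaperonin pair was lower in the tumours of both lines. Hspa9 (mortalin), the motor that pulls proteins into the matrix, had log2 levels of 5.21 and 5.20 in Keap1 null allografts, 4.30 and 4.26 in WT allografts, 5.54 and 5.53 in Keap1 null dishes, and 5.84 and 5.84 in WT dishes. Its line difference was 0.93 ± 0.08 in allografts (adjusted p = 0.000325) and its interaction 1.23 ± 0.11 (adjusted p = 0.000702). The allograft was below the dish by -0.33 in Keap1 null (adjusted p = 0.0116, ended without either Keap1 null dish array at 0.0664 to 0.0709) and -1.56 in WT (adjusted p = 2.04e-05). Hspd1 (HSP60) had 5.88 and 6.00 in Keap1 null allografts, 5.50 and 5.47 in WT allografts, 7.04 and 6.98 in Keap1 null dishes, and 7.17 and 7.00 in WT dishes. Hspe1 (HSP10), its lid, had 4.23 and 4.26, 3.89 and 4.06, 5.62 and 5.61, and 5.53 and 5.58 in the same 4 groups. For both genes every allograft array was below every dish array. Hspd1 was lower in allografts by -1.07 in Keap1 null (adjusted p = 0.000233) and -1.60 in WT (adjusted p = 4.52e-05), and Hspe1 by -1.37 (adjusted p = 6.92e-05) and -1.58 (adjusted p = 3.72e-05).

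Hspd1 and Hspe1 are neighbours in the RefSeq table and their promoter windows overlap on opposite strands. The stretch is shown because both hold the same pair of overlapping heat shock elements, in capitals, at -89 to -77 and -84 to -72 from the start of Hspe1. It lies at chr1:55087948-55088147 on the plus strand (GRCm38.p6, RefSeq), the strand of Hspe1.
Hspe1: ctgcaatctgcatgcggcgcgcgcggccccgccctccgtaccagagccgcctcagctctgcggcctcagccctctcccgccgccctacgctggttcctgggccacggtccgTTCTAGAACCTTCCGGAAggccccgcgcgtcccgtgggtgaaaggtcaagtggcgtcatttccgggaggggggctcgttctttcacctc
Of 13 tested genes of mitochondrial folding and proteolysis, 1 was higher and 9 were lower in allograft than dish in Keap1 null cells, against 35.8% and 29.1% of all targets, and 0 and 11 in WT cells, against 35.8% and 32.2%. They include the protease subunit Clpp (-0.78, adjusted p = 0.000808, in Keap1 null and -1.22, adjusted p = 0.000122, in WT). Between the lines in allografts 4 were higher and 2 lower in Keap1 null, against 20.5% and 21.3% of all targets. The HSP70 exchange factors Grpel1 and Grpel2 gave 0.49 (adjusted p = 0.00565) and 0.53 (adjusted p = 0.0155), and the proteases Lonp1 and Htra2 gave 0.60 (adjusted p = 0.0039) and -0.55 (adjusted p = 0.00825).

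The cytosolic HSP90 genes and the constitutive HSP70 gene Hspa8 were lower in tumours of both lines. Over the HSP70 family of 11 genes, 1 was called higher and 6 lower in Keap1 null allograft than dish, and 3 higher and 5 lower in WT. Among all targets 35.8% were higher and 29.1% lower in Keap1 null, and 35.8% and 32.2% in WT. Hsp90aa1, the stress-inducible cytosolic HSP90, had log2 levels of 6.50 and 6.62 in Keap1 null allografts, 6.40 and 6.53 in WT allografts, 7.27 and 7.39 in Keap1 null dishes, and 7.60 and 7.59 in WT dishes. Allograft and dish arrays did not overlap, and the allograft groups of the lines did. Against the dish the change was -0.77 in Keap1 null (adjusted p = 0.000929) and -1.13 in WT (adjusted p = 0.000174). The constitutive Hsp90ab1 gave -0.90 (adjusted p = 0.00105) and -1.33 (adjusted p = 0.000198). Hspa8 (HSC70), the main constitutive HSP70, gave -0.48 (adjusted p = 0.00927) and -0.83 (adjusted p = 0.000919), the first ending without Keap1 null dish replicate 2 (adjusted p = 0.0623). Hsf1 itself gave -0.75 (adjusted p = 0.00487) and -0.82 (adjusted p = 0.00296), and its line differences were -0.37 in allografts (adjusted p = 0.0896) and -0.45 in dishes (adjusted p = 0.0822).

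The classic heat-inducible genes Hspa1a and Hspa1b did not follow. Hspa1a had log2 levels of 2.04 and 1.86 in Keap1 null allografts, 1.96 and 2.06 in WT allografts, 1.76 and 1.67 in Keap1 null dishes, and 2.10 and 2.14 in WT dishes. Its line difference in dishes, -0.40 (adjusted p = 0.0401), ended with any 1 of 6 arrays left out, namely the 4 dish arrays and both WT allografts (adjusted p 0.0651 to 0.204). Its growth changes were 0.23 in Keap1 null (adjusted p = 0.0882) and -0.10 in WT (adjusted p = 0.403). Hspa1b gave -0.25 (adjusted p = 0.14) and -0.19 (adjusted p = 0.23). The pair are near-identical neighbours, so their probes may share target RNA, and the values are uncertain as to which gene they report. Dnajb1 (HSP40), the main partner of inducible HSP70, had 3.99 and 4.07 in Keap1 null allografts against 4.71 and 4.64 in WT allografts, a line difference of -0.65 ± 0.09 (adjusted p = 0.00237), opposite in sign to Hsph1. A 2nd Dnajb1 probe gave an uncalled -0.16 between the lines in allografts (adjusted p over probes = 0.303) and had the other sign in the interaction. Dnaja1, a farnesylated J protein, gave -0.78 in Keap1 null (adjusted p = 0.000623) and -1.05 in WT (adjusted p = 0.000172) between allograft and dish.

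Co-chaperones outside the member set moved in the same direction with growth. Of 27 co-chaperone and HSF1-related genes, 3 were higher and 21 lower in allograft than dish in Keap1 null cells, and 1 and 23 in WT cells, against 35.8% higher and 29.1% lower, and 35.8% and 32.2%, among all targets. Stip1 (HOP), which passes clients from HSP70 to HSP90, gave -1.23 in Keap1 null (adjusted p = 0.00023) and -1.62 in WT (adjusted p = 7.31e-05). Of 14 genes of the cytosolic chaperonin (CCT) and its partner prefoldin, 14 were lower in Keap1 null and 13 in WT, with Cct3 at -1.39 (adjusted p = 9.05e-05) and -1.43 (adjusted p = 7.39e-05). Under quantile normalization 11 were lower in Keap1 null, and 12 lower and 1 higher in WT. Bag2, an exchange factor that inhibits the ubiquitin ligase CHIP, was 1.78 higher in Keap1 null than WT allografts (adjusted p = 3.67e-05).

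The small HSPs held the largest measured difference between the lines in tumours, that of Hspb2. This muscle-enriched small HSP had log2 levels of 0.37 and -0.22 in Keap1 null allografts, -3.44 and -3.71 in WT allografts, -3.46 and -3.59 in Keap1 null dishes, and -4.63 and -4.58 in WT dishes. The Keap1 null allografts stood far above all other arrays, 12.6-fold over WT allografts (log2 3.65 ± 0.21, adjusted p = 8.43e-05), and the dish difference of 1.08 (adjusted p = 0.0171) was called until any 1 dish array was left out (adjusted p 0.0677 to 0.0961). A dimmer 2nd Hspb2 probe gave 1.89 in allografts and 0.37 in dishes. Cryab (alpha-B crystallin), its neighbour in the RefSeq table and no member by the rule, had 3.97 and 3.69 in Keap1 null allografts, -1.45 and -1.63 in WT allografts, 1.05 and 0.91 in Keap1 null dishes, and -0.48 and -0.60 in WT dishes. It differed between the lines by 5.37 in allografts (adjusted p = 9.06e-06) and 1.52 in dishes (adjusted p = 0.000969). Hspb6 (HSP20) and Hspb7 (cvHSP), both known from muscle, were also higher in Keap1 null than WT allografts, by 1.28 (adjusted p = 0.00194) and 1.12 (adjusted p = 0.00884), the second from a probe well above background on 7 of 8 arrays. Of the 4 tested small HSPs listed as muscle genes, 3 were called higher and 1, Hspb8, lower. Among all targets 20.5% were higher and 21.3% lower.

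Skeletal muscle markers were also measured. Of 10 tested, 2 were called higher and 0 lower in Keap1 null than WT allografts, 9 higher and 0 lower in allograft than dish in Keap1 null, and 6 higher and 1 lower in WT. Among all targets the shares higher and lower were 20.5% and 21.3%, 35.8% and 29.1%, and 35.8% and 32.2% in the same order. Over the list, their summed scaled intensity was 4.54 to 22.9 in Keap1 null allografts (9 of 11 above background), 1.19 to 4.51 in WT allografts (10 of 11), 0.486 to 0.507 in Keap1 null dishes (5 to 6) and 0.486 to 0.501 in WT dishes (6). On Keap1 null allograft replicates 1 and 2 the markers summed to 22.9 and 4.54, and Hspb2 was 0.37 and -0.22. The single markers differed in their gap between these arrays, with Acta1 at 2.22 and -0.11 and Atp2a1 at -1.81 and -1.74. Between allograft and dish in WT, Hspb6 gave -1.26 (adjusted p = 0.000972). The part of muscle in the allograft values of Hspb2, Hspb6 and Hspb7 was not tested.

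Hspb1 (HSP25, the mouse HSP27), which guards actin filaments, followed another course. Its log2 levels were 1.69 and 1.31 in Keap1 null allografts, 1.41 and 1.45 in WT allografts, 2.69 and 2.68 in Keap1 null dishes, and 3.999 and 3.86 in WT dishes. The lines did not overlap in dishes and did in allografts, with differences of -1.24 ± 0.14 (adjusted p = 0.00242) in dishes and 0.08 (adjusted p = 0.717) in allografts. Hspb8, which works with the co-chaperone Bag3 in selective autophagy, had -0.88 and -1.03 in Keap1 null allografts, -0.32 and -0.32 in WT allografts, 0.34 and 0.35 in Keap1 null dishes, and 1.43 and 1.31 in WT dishes. No 2 groups overlapped, and Keap1 null was lower in both allografts (-0.64, adjusted p = 0.00317) and dishes (-1.03, adjusted p = 0.00111). Hspb11 (IFT25), a transport protein of the cilium in spite of its name, was lower in Keap1 null than WT allografts (-0.78, adjusted p = 0.00088).

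The divergent HSP70 genes Hspa12a and Hspa12b changed order between dish and tumour. Hspa12b, known from endothelium, had log2 levels of 0.64 and 0.69 in Keap1 null allografts, 1.59 and 1.49 in WT allografts, 1.13 and 1.14 in Keap1 null dishes, and -0.76 and -0.87 in WT dishes. The WT dishes were lowest and the WT allografts highest, with line differences of -0.87 in allografts (adjusted p = 0.000772) and 1.95 in dishes (adjusted p = 0.000101), and an interaction of -2.82 ± 0.13 (adjusted p = 0.000108). Endothelial markers summed to 9.80 to 10.6 in Keap1 null allografts, 11.6 to 12.1 in WT allografts, 0.194 to 0.198 in Keap1 null dishes and 0.172 to 0.195 in WT dishes. Their part in the Hspa12b values was not tested. On no Keap1 null allograft or WT dish array did Hspa12a rise well above background, so its differences are bounds: the brighter group's mean over the higher of the dim signal and the lowest signal well above background. It was at least 2.92-fold lower in Keap1 null than WT allografts (adjusted p = 4.4e-05) and at least 2.62-fold higher in Keap1 null than WT dishes (adjusted p = 0.000875). Hspa2, an HSP70 best known from testis, was lower in Keap1 null allografts by -1.29 (adjusted p = 0.000276).

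Other J proteins with large differences between the lines were Dnajb4, Dnajc21, Dnajc22 and Dnajb3. Dnajb4, a cytosolic partner of HSP70, had log2 levels of 2.62 and 2.59 in Keap1 null allografts, 0.46 and 0.92 in WT allografts, 1.60 and 1.81 in Keap1 null dishes, and 0.94 and 1.27 in WT dishes. Keap1 null lay above WT in both growths, by 1.91 ± 0.20 in allografts (adjusted p = 0.000713) and an uncalled 0.60 in dishes (adjusted p = 0.0877). Dnajc21, a ribosome assembly factor, had 2.04 and 2.07 in Keap1 null allografts, 1.00 and 0.63 in WT allografts, 1.78 and 1.68 in Keap1 null dishes, and 2.44 and 2.47 in WT dishes. Its order turned with growth, with 1.24 in allografts (adjusted p = 0.000973), -0.73 in dishes (adjusted p = 0.0156, ended without any 1 dish array at 0.0682 to 0.0965) and an interaction of 1.96 ± 0.19 (adjusted p = 0.00097). Dnajc22 had -2.46 and -2.63 in Keap1 null allografts, -2.01 and -2.07 in WT allografts, -4.50 and -4.48 in Keap1 null dishes, and -2.51 and -2.61 in WT dishes. The Keap1 null dishes alone were low, with a line difference of -1.93 ± 0.10 in dishes (adjusted p = 0.000126). Dnajb3, known from testis, was not well above background in WT dishes and Keap1 null dishes were at least 3.85-fold above them (adjusted p = 6.26e-05).

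**Figure D3:**
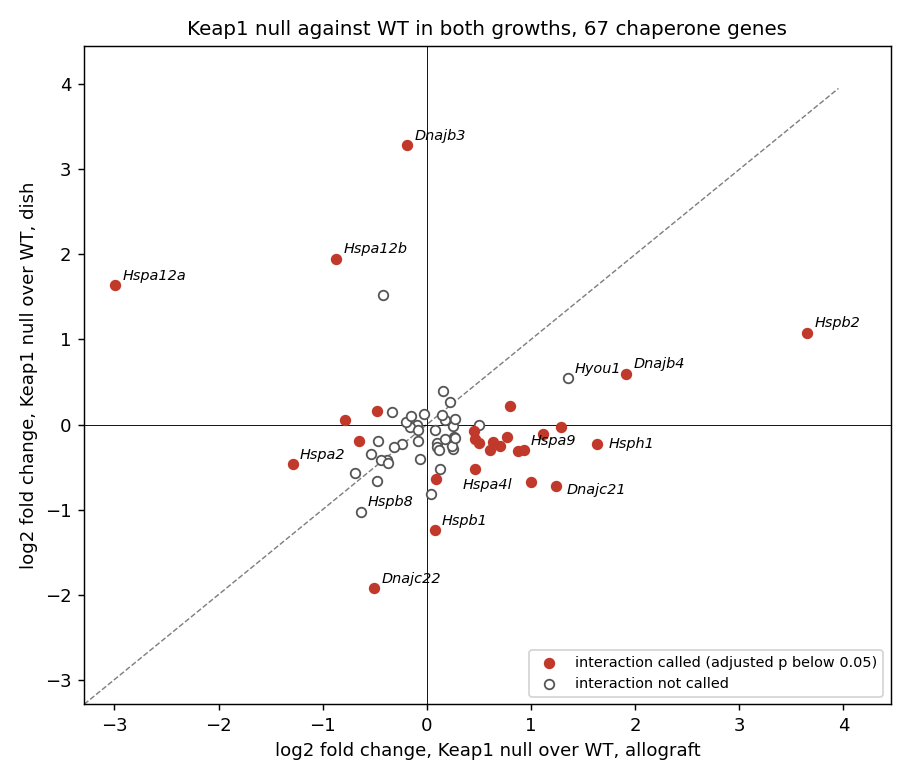
Log2 fold change of Keap1 null over WT in allografts (horizontal) and in dishes (vertical) for the 67 tested chaperone genes, with a dashed line of equality. Filled red points are the 28 genes with a called interaction, and Hspa12a and Dnajb3 are plotted at measured values although they are bounds. Hsph1, Hspa4l and Dnajc21 lie to the right of 0 and below it.

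Of the 15 members lower in Keap1 null dishes and the 14 lower in Keap1 null allografts, 8 were the same genes (53.3% and 57.1%): Dnaja4, Dnajc1, Dnajc16, Dnajc17, Dnajc22, Dnajc27, Hspa2 and Hspb8. Among all targets the shares were 40.3% and 18.5%. Of the 5 higher in Keap1 null dishes, 1 (Hspb2) was also higher in allografts, and 2 were called lower there. The 1 shared gene was 20% of the 5 and 5.56% of the 18 higher in allografts, against 42% and 23.3% among all targets. Among all targets, 735 of the 2602 higher in Keap1 null dishes were called lower in allografts. These comparisons share no arrays.

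Of the 35 members lower in allograft in Keap1 null and the 42 lower in WT, 29 were the same genes (82.9% and 69%), against 70.7% and 63.8% among all targets. They include Hsf1, Hsp90aa1, Hsp90ab1, Hspa8, Hspd1, Hspe1, Dnaja1 and Dnajb1. Of the 9 higher in allograft in Keap1 null and the 8 higher in WT, 3 were the same genes (33.3% and 37.5%), against 75.5% and 75.4% among all targets. They were Dnajb8, Dnajc22 and Hspb2. The Dnajb8 call in Keap1 null ended without either Keap1 null dish array or Keap1 null allograft replicate 2 (adjusted p 0.051 to 0.0685), and the Hspb2 call in WT ended with median scaling, quantile normalization or normexp background. The WT rise of Dnajc22 (0.52, adjusted p = 0.004) turned to -0.50 with median scaling and to -0.07 with quantile normalization. The growth values of other members, in the ER and elsewhere, also changed sign with the scaling. Hspa5 and Hsp90b1 gave -0.69 (adjusted p = 0.00637) and -0.62 (adjusted p = 0.00171) in WT, but 0.02 and 0.12 with quantile normalization. In Keap1 null they gave an uncalled 0.22 (adjusted p = 0.229) and 0.21 (adjusted p = 0.101), but -0.65 and -0.66 with median scaling.

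**Figure D4:**
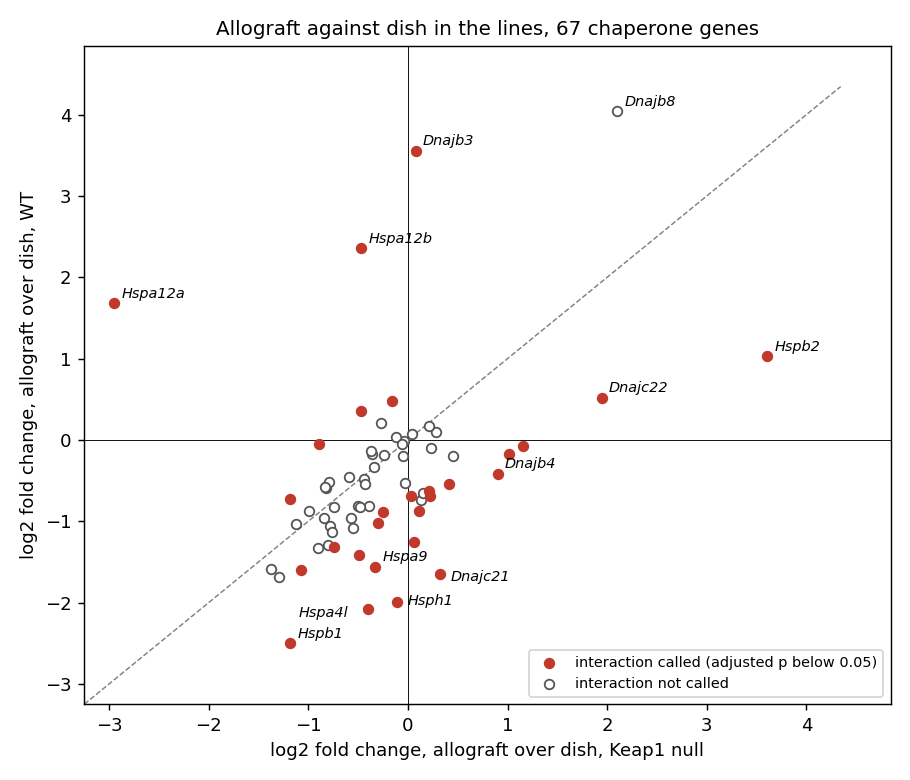
Log2 fold change of allograft over dish in Keap1 null (horizontal) and WT (vertical) for the 67 tested chaperone genes, with a dashed line of equality. Filled red points are the 28 genes with a called interaction. Hsph1, Hspa4l, Hspa9 and Dnajc21 lie below the line, lower in WT than in Keap1 null, and Hspa12a and Dnajb3 are plotted at measured values although they are bounds.

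The testis J protein Dnajb8 had log2 levels of -2.52 and -1.44 in Keap1 null allografts, -2.21 and -0.90 in WT allografts, -4.03 and -4.13 in Keap1 null dishes, and -5.33 and -5.87 in WT dishes. Every allograft array lay above every dish array, by 2.10 in Keap1 null (adjusted p = 0.0141) and 4.04 in WT (adjusted p = 0.000864), and its line differences were -0.42 in allografts (adjusted p = 0.575) and 1.52 in dishes (adjusted p = 0.101). Dnajc12 had 0.67 and 0.40 in Keap1 null allografts, -0.33 and -0.20 in WT allografts, 1.32 and 1.22 in Keap1 null dishes, and 1.06 and 1.04 in WT dishes. It was lower in both tumours and 0.80 higher in Keap1 null than WT allografts (adjusted p = 0.00323). Dnaja3 (TID1), a mitochondrial J protein, had 1.30 and 1.33 in Keap1 null allografts, 1.13 and 1.31 in WT allografts, 1.25 and 1.30 in Keap1 null dishes, and 1.83 and 1.99 in WT dishes. The WT dishes alone were high, with a line difference of -0.64 in dishes (adjusted p = 0.00957) that ended without either Keap1 null dish array or WT dish replicate 2 (adjusted p 0.0509 to 0.0714).

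Several J proteins were called for growth in both lines and not between the lines in either growth. Dnaja2, a cytosolic partner of HSP70, gave -0.84 in Keap1 null (adjusted p = 0.000445) and -0.96 in WT (adjusted p = 0.000242). Dnajc2 (MPP11), a ribosome-associated J protein, gave -0.80 (adjusted p = 0.0046) and -1.30 (adjusted p = 0.000566), with an interaction of 0.49 called in the fit with the replicate block (adjusted p = 0.0249). Dnajc11, of the mitochondrial cristae complex, gave -1.13 (adjusted p = 0.000416) and -1.04 (adjusted p = 0.000536). Dnajc9, a histone chaperone, gave -0.83 (adjusted p = 0.000791) and -0.58 (adjusted p = 0.0033), and its WT value was 0.11 with quantile normalization. The 7 tested members called in none of the 5 comparisons were Dnajb14, Dnajc10, Dnajc4, Dnajc5, Dnajc5g, Hspa1b and Hspb9.

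The antioxidant response element core TGACNNNGC, which NRF2 binds together with a partner protein, was found in 9 of the 52 members with a promoter sequence, against 13.991% of genes. Nfe2l2 itself was 0.60 higher in Keap1 null than WT allografts (adjusted p = 0.00529) and 0.07 in dishes (adjusted p = 0.743). Several tested probes were present for 34 members. Among the called genes with several probes, all probes had 1 sign for 17 of 19 in the allograft line comparison, 12 of 12 in the dish line comparison, 22 of 24 for growth in Keap1 null, 21 of 22 for growth in WT and 15 of 17 for the interaction. All probes were called the same way for 11, 3, 18, 18 and 9 of these genes in the same order.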

How the data were processed

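RNA of 4 groups, 2 arrays each, was labelled with Cy3 from 500 ng of total RNA, per the labels' protocols. The deposited values are Cy3 intensities as Feature Extraction 10.7.3.1 wrote them, per the file headers: the processed signal is an intensity from which that software took background and spatial trend, without scaling between arrays.

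With R 4.3.3 and limma 3.58.1, log2 processed signal minus the array's 75th percentile was used. Control and outlier spots were dropped and repeated spots averaged. The 30358 of 41174 probes that exceeded background well on 2 arrays of some group were tested. Bounds ("at least") replace folds where a group was not well above background on either array. Names came from accessions matched to RefSeq (GRCm38.p6, names and promoters only, since the headers name mm9), which named 26690 probes, and the brightest tested probe stood for a gene. One fit of 4 group means over 8 arrays gave all comparisons. The number of arrays limits the precision. Slide and scan follow the replicate number, and each slide holds all 4 groups. Same-numbered arrays deviated together (r = 0.247 to 0.43 over the 6 pairs of groups), the pairing coming from the file headers, so the replicate block was an alternative. The files hold median but no mean signals and no gene name column, so normexp (offset 50) used median signals. The fit was tested on simulated data.

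Named genes are a fixed core of stress chaperones, the 12 largest called rises and falls of each comparison, and the 4 called genes with the largest change of each pathway list, or the 2 brightest where none was called. Members, lists and naming rule were chosen with earlier results of these data known. Alternatives were other scalings, backgrounds, filters, probe choices, the block, 2-group fits and leaving out each array.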

Additional observations from a re-analysis of the deposited data

Results flagged for a closer look

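The line difference (Keap1 null over WT) itself differed between allograft and dish for 28 chaperone genes by limma's interaction term, and each value below is the log2 difference in allografts minus that in dishes. It was positive for the exchange factors Hsph1 (1.87), Hspa4l (1.68) and Hspa4 (0.92), the ER chaperones Dnajb9 (1.19), Dnajc3 (0.96), Hspa5 (0.91) and Hsp90b1 (0.84), and the mitochondrial Hspa9 (1.23), Dnaja3 (0.73) and Hspd1 (0.53). Small HSPs with positive values were Hspb2 (2.57), Hspb1 (1.32), Hspb6 (1.32) and Hspb7 (1.23). The other positive values were those of Dnajc21 (1.96), Dnajc22 (1.43), Dnajb4 (1.32), Dnajb6 (0.98), Dnajb2 (0.71), Dnajc8 (0.63) and Dnajc12 (0.58). Negative values were those of Hspa12a (-4.63), Dnajb3 (-3.48), Hspa12b (-2.82), Hspb11 (-0.84), Hspa2 (-0.82), Dnajc28 (-0.64) and Dnajb1 (-0.46). Hspa12a and Dnajb3 were not well above background in at least 1 group, so their values are measured differences and no bounds. Of the 28 calls, 17 held when each array was left out in turn. The other 11 ended with at least 1 array left out, with adjusted p between 0.0517 and 0.145, and were Dnaja3, Dnajb1, Dnajb2, Dnajb4, Dnajb6, Dnajc12, Dnajc28, Dnajc8, Hspa5, Hspb7 and Hspd1. Hspa4 and Dnajb1 have probes of opposite sign.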

How the results depend on the processing

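Across the 5 comparisons 174 chaperone calls were made. The replicate block, which is also the slide and scan, kept 172, ended those of Dnajc30 in both growth comparisons, reversed 0 and added 26. All 146 called line and growth differences kept their sign within each slide, and the pooled medians of -0.19 (lines, dish), 0.10 (lines, allograft), -0.34 (growth, Keap1 null) and -0.59 (growth, WT) were -0.22, 0.11, -0.36 and -0.67 on slide 1 and -0.18, 0.13, -0.33 and -0.55 on slide 2. Median scaling kept 157, quantile normalization 134, unscaled intensities 94, normexp 149, no filter 156, the mean of a gene's probes 166 and fits of only the compared groups 123 of 146. With unscaled intensities counts of called genes moved to 8 (main 20) for lines in dishes, 25 (44) and 29 (50) for growth in Keap1 null and WT, and 13 (28) for the interaction. For lines in dishes the count was 10 with normexp, 13 with no filter, 13 with only the dish groups, and 7 to 18 with 1 array left out. With 1 array left out, where the lone array is assumed to vary like the other groups, the other counts were 26 to 32 (lines, allograft), 30 to 42 (growth, Keap1 null), 45 to 49 (growth, WT) and 19 to 25 (interaction). Sign changes were counted only for genes called in the main fit or under the alternative, and all of these were in growth comparisons. Values called in neither could also change sign and were not counted. Unscaled, the median over the members changed from 0.10 to -0.13 for lines in allografts and from 0.34 to -0.02 for the interaction. The median of all targets changed from 0.00 to -0.22 and from 0.04 to -0.31. With median scaling, which shifts all targets down, the Keap1 null values were -0.83 for Dnaja3, -0.79 for Dnajb3, -0.76 for Dnajb6, -0.58 for Dnajc1, -0.83 for Dnajc10, -0.55 for Dnajc21, -0.45 for Dnajc3, -0.66 for Dnajc4, -0.66 for Hsp90b1, -0.41 for Hspa13, -0.63 for Hspa1a, -0.74 for Hspa1l, -0.65 for Hspa5, -0.81 for Hspb6 and -0.72 for Hyou1. The WT values were -0.81 for Dnajb14, -0.92 for Dnajc1, -0.95 for Dnajc10, -0.50 for Dnajc22, -0.54 for Dnajc28, -0.85 for Dnajc4, -0.99 for Dnajc5 and -0.67 for Hspa2. With quantile normalization Dnajb3 was -0.80 and Hspa1l -0.75 in Keap1 null, and in WT Dnajc19 was 0.024, Dnajc22 -0.068, Dnajc28 -0.27, Dnajc9 0.11, Hsp90b1 0.12, Hspa1a 0.28, Hspa5 0.017 and Hspb11 0.25. With the mean of probes Dnajc16 was 0.026 in Keap1 null and Dnajc5 -0.61 in WT, and unscaled Dnajc30 was 0.049 in WT. The cause was not tested beyond the shift named. Signal over background limits Hspa12a, Dnajb3 and Hspb7. A fit of only the compared groups was not run for the interaction, which uses all 4.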
